A study of Mus musculus with 384 samples.

Results

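*Aldh1a7*-positive dopamine (DA) neurons were compared with the other DA neurons of the same mice. The data are read counts of 384 single cells from 8 DAT-Cre;Ai9(RCL-tdT) mice of strain C57BL6/J, aged 24–36 days, in which Cre made from the dopamine transporter gene switches on the red reporter tdTomato. Because the reporter stays on once Cre has acted, a sorted cell need not make the transporter at the time of capture, and the tissue held hypothalamus as well as midbrain. The cells were sorted for tdTomato and against a dye for dead cells, and captured in 1 Fluidigm C1 run per mouse, so that mouse and run cannot be told apart. The labels name no drug or genotype that differs between mice, and all carried the Cre allele and the reporter.

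The cells were chosen by their measured counts. A cell was kept with at least 500000 reads on genes and at least 1000 CPM (reads of a gene scaled to a common library size) of *Th*, the enzyme that makes L-DOPA, and it was called *Aldh1a7*-positive with at least 10 reads of *Aldh1a7*. Of 384 cells, 209 passed the limit on reads and 181 passed both. Of these 181 cells, 74 were *Aldh1a7*-positive and 107 were not, and the latter are called other *Th*-rich cells. Mice with at least 3 cells in each class were tested, which left 7 mice, 5 labelled male and 2 labelled female, with 74 positive and 96 other cells. Mouse 1, labelled female, had 0 positive cells among 11, which allows a share of up to 27.3% (3 cells of 11), and it did not enter the tests. Just outside the *Aldh1a7* limit were 4 cells with 9 reads, and just inside it were 2 cells with 10 reads. The highest *Th* level left out was 756.9 CPM and the lowest kept was 1083 CPM.

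DA neurons of the ventral midbrain lie mainly in the substantia nigra pars compacta, which projects to the dorsal striatum, and in the ventral tegmental area (VTA), which projects to the ventral striatum and cortex. Within both, gene expression divides the cells further. *Aldh1a1*, an aldehyde dehydrogenase that makes retinoic acid from retinal and can clear the aldehyde formed from dopamine, marks cells of the ventral tier of the nigra and part of the VTA. *Aldh1a7* is a rodent gene closely related to *Aldh1a1*. *Sox6*, a transcription factor, is known from nigral cells, while *Otx2*, another transcription factor, is known from the VTA. The calcium-binding protein *Calb1* is known from the VTA and the dorsal tier.

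*Aldh1a7* and *Aldh1a1* are neighbours. In RefSeq on GRCm38.p6, *Aldh1a7* lies on the minus strand at chr19:20692953-20727556 and *Aldh1a1* on the plus strand at chr19:20492583-20643463, with 49489 bases between them. No gene is annotated in that gap, and the next protein-coding gene on the *Aldh1a1* side is *Anxa1*, at chr19:20373434-20390671, a further 101911 bases away. The 150 bases just before the start of *Aldh1a7* (chr19:20727557-20727706, minus strand) and before the second of the 2 starts listed for *Aldh1a1* (chr19:20601818-20601967, plus strand, inside the span of the gene) are shown because *Aldh1a7* defines the cells and *Aldh1a1* was present in nearly all of them. Capitals mark the longest run of identical bases.
Aldh1a7: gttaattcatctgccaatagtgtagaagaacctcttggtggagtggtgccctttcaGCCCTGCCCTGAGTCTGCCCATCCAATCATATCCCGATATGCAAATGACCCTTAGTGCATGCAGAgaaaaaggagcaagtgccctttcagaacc
Aldh1a1: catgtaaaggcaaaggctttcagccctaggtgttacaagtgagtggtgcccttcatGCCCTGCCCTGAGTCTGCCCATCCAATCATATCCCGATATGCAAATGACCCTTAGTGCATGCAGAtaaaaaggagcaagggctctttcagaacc

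The run is 65 bases long and stands at the same place in both, from 94 to 30 bases before the start. It was found in 2 of 32851 promoter windows of RefSeq, 1 for each of these genes. Without gaps, 108 of the 150 bases were identical (72%). The run holds the octamer ATGCAAAT, which was searched on both strands and found in the 250 bases before the start in 526 of 32851 windows (1.6%). With the first start listed for *Aldh1a1*, the longest shared run was 8 bases. These matches describe the sequences only.

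The transcripts are alike too, so reads of one gene could also align to the other. The authors left out reads aligned to more than 1 gene, so a read that matches both genes equally would be dropped rather than counted on the other. The main *Aldh1a7* transcript (2066 bases) and an *Aldh1a1* transcript (2053 bases) were identical at 89% of aligned positions. Of the 50-base windows of the *Aldh1a7* transcript, 7.49% were present without a mismatch in an *Aldh1a1* transcript, and 1 of the 100-base windows was. The positive cells had 23621 *Aldh1a7* reads and 371095 *Aldh1a1* reads, that is 6.37 *Aldh1a7* reads per 100 *Aldh1a1* reads from transcripts of near equal length. In the other cells the same ratio was 0.144 per 100. Among the other cells, 33 had at least 1000 *Aldh1a1* reads (1144–7275), and their *Aldh1a7* reads had a median of 4, with 4 cells at 0 and an upper end of 9 that the rule sets. The part of misplaced *Aldh1a1* reads and of dropped reads in these low counts was not tested.

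**Figure D1:**
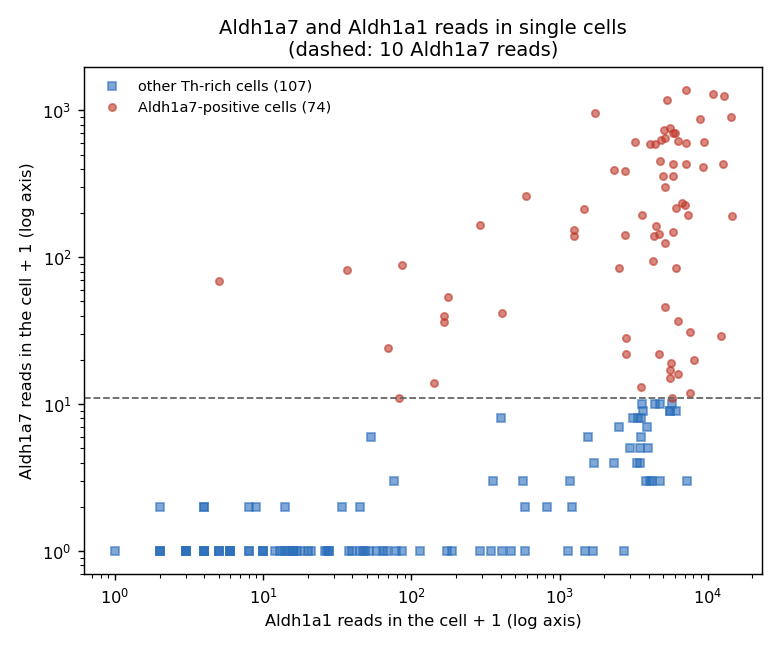
Reads of *Aldh1a1* (x axis) and *Aldh1a7* (y axis) in each of 181 *Th*-rich cells, both as reads + 1 on log axes. Circles are the 74 positive cells and squares the 107 others, and 62 of the positive cells lie above 1000 *Aldh1a1* reads, as do 33 of the others.

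*Aldh1a7* itself ranged from 10 to 1383 reads in the positive cells, with a median of 177.5 reads (259 CPM). In the other cells 63 of 107 had 0 reads and 44 had 1 to 9. *Aldh1a1* was at a median of 6452 CPM in positive cells and 68.9 CPM in the others, and only 1 of 74 positive cells had fewer than 10 *Aldh1a1* reads. After the cells of a class were summed per mouse, *Aldh1a1* was lowest at 4451 CPM, median 7224 CPM and highest at 8045 CPM in the positive sums, and at 2.61, 1393 and 1876 CPM in the other sums. The 2 sets of sums did not overlap, as in 0.0958% of all genes tested. The log2 fold change was 2.43 ± 0.64 (SE, n = 7 mice), and the adjusted p of edgeR's quasi-likelihood test was 0.245. The value for the other cells of mouse 4, which stands on 4 cells, was the 2.61 CPM, and the next lowest was 787 CPM.

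The ranges of depth overlapped. Reads per cell had a median of 791472 in positive cells (range 506511–1545100) and 780913 in the others (500672–1380765). The mean per mouse was 843911 ± 128279 reads in positive and 792536 ± 70839 reads in other cells (SD, n = 7), higher in 5 of 7 mice (exact permutation test over mice, two-sided, p = 0.3125, smallest possible p 0.0156). Genes with a read numbered 9237 ± 681 and 8860 ± 448 per cell (exact permutation p = 0.219). The summed libraries held 2597194–19846108 reads. *Th*, on which the cells were chosen, had a median of 7312 CPM in positive and 6479 CPM in other cells.

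Of 12524 genes tested, 5 were higher and 8 were lower in *Aldh1a7*-positive cells at an adjusted p under 0.05 (edgeR), which is 0.0399% and 0.0639% of the genes. This fit left out the pairing of the 2 sums of a mouse, and with the mouse as a block 9 of these 13 genes were called. An unadjusted p under 0.05 was reached by 943 genes (7.53%), and DESeq2 called 140 (1.12%), and the counts given for gene lists below stand beside these shares. Higher were *Satb1*, *Serpine2*, *Ptpn5*, *Cntn4* and *Ift57*, and lower were *Grm8*, *Ndst3*, *Tmeff2*, *Reln*, *Actn2*, *Pcdh7*, *Ryr2* and *Rxrg*. All 5 higher genes were higher in 7 of 7 mice, as were 2.06% of all genes, and all 8 lower genes were lower in 7 of 7 mice, as were 2.44% of all genes. The sums of the classes did not overlap for 3 of the 5 higher genes and 7 of the 8 lower genes. Across all genes the sums lay fully apart upward in 0.0958% and downward in 0.263% of genes. The positive sums of *Grm8*, *Reln* and *Actn2* were too low to count toward the filter on low counts. These 3 genes could be tested only if all 7 of their other sums passed it. Their direction and lack of overlap were thus set by the filter, and the shares over all genes are no measure for them. A summed level cannot tell fewer expressing cells from less RNA per cell, so the number of cells with at least 10 reads is given for each gene.

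**Figure D2:**
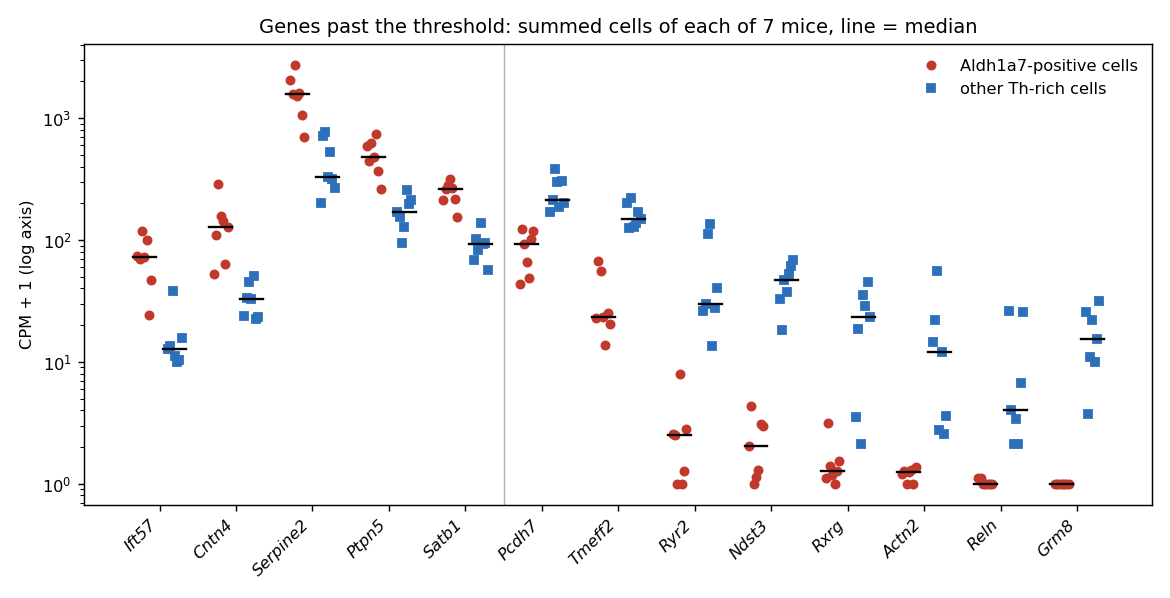
CPM + 1 on a log axis (y) of the 13 genes past the threshold (x), with 1 point per mouse for the summed *Aldh1a7*-positive cells (circles) and the summed other cells (squares), and a line at the median of 7 mice. The 5 genes left of the grey line were higher in positive cells, and the 8 genes right of it were lower, with all circles of *Grm8* at 0 CPM.

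*Satb1*, a chromatin-organizing transcription factor listed among nigral-type genes, had the lowest adjusted p of the higher genes. Its positive sums ranged from 152.8 to 314.8 CPM with a median of 261.7 CPM, and its other sums from 55.7 to 135.6 CPM with a median of 92.5 CPM. Every positive sum stood above every other sum. The log2 fold change was 1.44 ± 0.21 (SE, n = 7) with an adjusted p of 0.00964 by edgeR, and at least 10 reads were present in 74 of 74 positive and 73 of 96 other cells.

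*Serpine2*, a secreted inhibitor of serine proteases, was at 696.5–2733 CPM (median 1588) in positive and 202–767 CPM (median 325) in other sums. The sums overlapped, because the positive cells of mouse 8 stood below the other cells of mice 3 and 4, yet in each mouse the positive cells were higher. Its log2 fold change was 1.85 ± 0.33 (edgeR adjusted p = 0.0322), and 73 of 74 positive and 84 of 96 other cells had at least 10 reads.

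*Ptpn5* encodes STEP, a brain tyrosine phosphatase that acts on glutamate receptors and MAP kinases. Its positive sums were at 260.1–742 CPM (median 480) and its other sums at 94.2–257 CPM (median 169), with no overlap. The log2 fold change was 1.53 ± 0.25 (edgeR adjusted p = 0.0179), and a fit blocked by mouse gave an adjusted p of 0.0633. At least 10 *Ptpn5* reads were present in 74 of 74 positive and 86 of 96 other cells.

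*Cntn4*, a contactin that acts in axon guidance and adhesion, was at 51.3–285 CPM (median 126) in positive and 21.5–49.7 CPM (median 31.7) in other sums. The sums did not overlap, and at least 10 reads were found in 61 of 74 positive and 32 of 96 other cells. Its log2 fold change was 2.06 ± 0.35 (edgeR adjusted p = 0.0249).

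*Ift57*, a part of the transport machinery of cilia, was at 23.1–117 CPM (median 71.9) in positive sums. In the other sums it was at 8.92–36.9 CPM (median 11.7), and the highest of these, from mouse 4, exceeded the lowest positive sum. The log2 fold change of 2.28 ± 0.41 (edgeR adjusted p = 0.0322) came with at least 10 reads in 61 of 74 positive and 28 of 96 other cells.

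The lower genes fell into those that were nearly absent from positive cells and those that were reduced. *Grm8*, a presynaptic metabotropic glutamate receptor, had 0 reads in all 7 positive sums, out of 61082940 reads. It was at 2.75–30.5 CPM (median 14.3) in the other sums. A count of 0 allows up to 3 reads over the whole class, or 0.0491 CPM, and *Grm8* was at 18.6 CPM over the other cells, so it was at least 379.5-fold lower (edgeR adjusted p = 0.00964). This bound covers counting error only, since reads without molecular identifiers are not independent molecules. At least 10 *Grm8* reads were found in 19 of 96 other cells. In the edgeR fit blocked by mouse, the adjusted p was 0.133.

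*Reln*, the secreted glycoprotein reelin, falls outside the rule for named genes because of its low level, and was named after its values were seen. It had 3 reads over all positive cells and 892 over the others, a ratio of 235.4 (exact 95% interval 80.3–1144, for counting error only). Mice 2 and 8 held 401 and 330 of the 892 reads, mouse 3 held 2 of the 3, and without mouse 3 the ratio was 544 on 1 positive read. Its other sums ranged from 1.11 to 25.1 CPM with a median of 3.00 CPM, so its reads came from few cells: 7 of 96 had at least 10. The edgeR adjusted p was 0.0157.

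*Actn2*, an actin cross-linking protein of muscle and of dendritic spines, was at 0–0.358 CPM in positive and 1.54–54.4 CPM (median 11.0) in other sums. At least 10 reads were present in 0 of 74 and 11 of 96 cells (log2 fold change -6.04 ± 1.00, edgeR adjusted p = 0.0224). *Rxrg*, a retinoid X receptor, was at 0–2.14 CPM (median 0.259) in positive and 1.12–44.2 CPM (median 22.5) in other sums. These overlapped, and 1 of 74 against 23 of 96 cells had at least 10 reads. The log2 fold change of *Rxrg* was -5.20 ± 0.97 with an edgeR adjusted p of 0.0479, the one nearest to the threshold. Blocked by mouse, edgeR gave an adjusted p of 0.101 for both *Actn2* and *Rxrg*, and then 0 retinoid genes passed.

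*Ryr2*, a channel that releases calcium from internal stores, was at 0–6.91 CPM (median 1.5) in positive and 12.4–134 CPM (median 28.8) in other sums, which lay apart. At least 10 reads were in 4 of 74 and 36 of 96 cells (log2 fold change -4.83 ± 0.86, edgeR adjusted p = 0.0322). *Ndst3*, an enzyme that modifies heparan sulfate, was at 0–3.32 CPM (median 1.04) in positive and 17.4–67.7 CPM (median 45.8) in other sums. Its log2 fold change was -5.05 ± 0.71 (edgeR adjusted p = 0.00964), and 3 of 74 against 45 of 96 cells had at least 10 reads.

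*Tmeff2*, a transmembrane protein with follistatin-like domains, and *Pcdh7*, a protocadherin, were present in both classes. *Tmeff2* was at 12.7–66.1 CPM (median 22.1) in positive and 124.1–221 CPM (median 149) in other sums (log2 fold change -2.35 ± 0.34, edgeR adjusted p = 0.00964). *Pcdh7* was at 42.5–122 CPM (median 91.3) in positive and 170.3–381 CPM (median 211) in other sums (log2 fold change -1.58 ± 0.27, edgeR adjusted p = 0.0249). For both genes the lowest other sum lay above the highest positive sum. At least 10 reads were present in 31 of 74 positive and 80 of 96 other cells for *Tmeff2*, and in 58 of 74 and 88 of 96 for *Pcdh7*.

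Cells with reads of *Gad2*, an enzyme that makes GABA, were not spread evenly between the classes. At least 10 *Gad2* reads were present in 2 of 74 positive cells (2.7%) and 26 of 96 other cells (27.1%), with 0–9 such cells per mouse among the others. Of the cells with reads of a lower gene, *Gad2*-positive cells were 8 of 19 for *Grm8*, 3 of 11 for *Actn2*, 19 of 45 for *Ndst3*, 11 of 36 for *Ryr2*, 9 of 23 for *Rxrg*, 2 of 7 for *Reln*, 23 of 80 for *Tmeff2* and 25 of 88 for *Pcdh7*. Without all cells that had at least 10 *Gad2* reads (72 positive and 70 other cells, 7 mice, an alternative added after the data were seen), 1 gene was higher and 0 were lower at the threshold by edgeR, with 371 and 433 genes at an unadjusted p under 0.05. The gene was *Satb1* (log2 fold change 1.26, adjusted p = 0.0332). Of the other called genes, *Grm8*, *Reln*, *Actn2* and *Rxrg* did not pass the filter on low counts there, and the remaining 8 kept their direction at adjusted p of 0.0767–0.168. Their log2 fold changes were 1.94 for *Cntn4*, 1.80 for *Serpine2*, 1.38 for *Ptpn5*, 2.37 for *Ift57*, -4.72 for *Ndst3*, -4.59 for *Ryr2*, -2.24 for *Tmeff2* and -1.40 for *Pcdh7*.

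The counts of 5 and 8 rested on the mice and cells used. Without mouse 2, 0 genes passed in either direction by edgeR (356 higher and 423 lower at an unadjusted p under 0.05), without mouse 3 it was 3 and 9, without mouse 5 it was 1 and 5, and without mouse 6 it was 1 and 4. Of the 13 genes, 5 were among the calls without mouse 3, 5 without mouse 5 and 5 without mouse 6. Moving the *Aldh1a7* limit to 1 read left 2 of the 13 called and moving it to 50 reads left 5, with 12 of the 13 tested and in the same direction at each. All 13 genes moved the same way in every mouse tested, so their direction within a sequencing lane was settled beforehand and is no further check. Within lane 1 (2 mice) 0 genes passed. Within lane 2 (4 mice) 1 and 6 genes passed, 2 of them among the 13. With the mouse as a block, 11 genes were higher and 6 lower, 9 of them among the 13.

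The gene lists were chosen with earlier results of these data known, so their shares beside those of all genes are no independent support. Nigral-type markers were described by a list of 16 genes, of which 14 passed the filter on low counts. Of these 14, 2 rose by edgeR (*Satb1* and *Serpine2*, 0.0399% of all genes rose), 0 fell and 12 did not pass. An unadjusted p under 0.05 was reached by 7, and DESeq2 called 4. The median log2 fold change was 1.06, beside -0.01 over all genes, and 5 of 14 (35.7%) were higher in 7 of 7 mice, against 2.06% of all genes. Those 5 were *Satb1*, *Serpine2*, *Sox6*, *Anxa1* and *Lmo3*. *Lmo3*, a LIM-domain cofactor of transcription, was at 573.8–1726 CPM (median 1029) in positive and 54.8–510.5 CPM (median 276) in other sums, without overlap, and its edgeR adjusted p was 0.0671 (log2 fold change 1.87 ± 0.37). *Sox6* was at 20.5–100.3 CPM (median 61.6) in positive and 8.45–36.2 CPM (median 17.5) in other sums (log2 fold change 1.72 ± 0.45, edgeR adjusted p = 0.245). *Anxa1*, a phospholipid-binding annexin, was at 183–4046 CPM (median 1140) in positive and 0.372–963 CPM (median 89.6) in other sums (log2 fold change 3.31 ± 1.07, edgeR adjusted p = 0.394). The spread of *Anxa1* between mice was wide in both classes, with 4 positive sums at or above 1140 CPM and 3 below 550 CPM. *Ndnf*, a neuron-derived secreted factor, had a log2 fold change of 1.06 ± 0.77, and *Igf1*, a growth factor, of 0.10 ± 0.48.

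VTA-type markers were described by 18 genes, also chosen with earlier results of these data known, of which 14 were tested. None of the 14 passed the threshold in either direction by edgeR, 4 had an unadjusted p under 0.05, and DESeq2 called 2. Their median log2 fold change was -0.59, and 6 of 14 (42.9%) were lower in 7 of 7 mice, against 2.44% of all genes: *Calb1*, *Cck*, *Slc17a6*, *Adcyap1*, *Cbln1* and *Lypd1*. *Calb1* was at 49.9–684 CPM (median 191) in positive and 518.2–1261 CPM (median 1028) in other sums (log2 fold change -1.77 ± 0.48, edgeR adjusted p = 0.273). The positive cells of mice 7 and 8 were the highest for *Calb1*, at 684 and 666 CPM, and those of the other 5 mice were at 195 CPM or less. *Cbln1*, a synaptic organizer, was at 0–5.90 CPM in positive and 0.745–106 CPM in other sums (log2 fold change -4.70 ± 1.06, edgeR adjusted p = 0.144). *Slc17a6*, the vesicular glutamate transporter VGLUT2, was at 0.301–216 CPM in positive and 64.5–342 CPM in other sums (log2 fold change -1.43 ± 0.71, edgeR adjusted p = 0.693). *Cck*, a neuropeptide, was at a median of 68.1 against 180.3 CPM (edgeR adjusted p = 0.434), and *Otx2* had a log2 fold change of -0.62 ± 0.99. *Grp*, a peptide, and *Neurod6*, a transcription factor, had values of 0.56 ± 0.78 and 0.99 ± 1.01, and *Lpl*, a lipase, 0.20 ± 0.84. The direction of *Otx2*, *Grp*, *Neurod6*, *Lpl* and *Igf1* turned under some of the other settings.

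Positive cells differed in *Sox6* and *Otx2*. Of the 74 positive cells, 49 had at least 10 reads of *Sox6* and not of *Otx2*, 9 had *Otx2* and not *Sox6*, 2 had both and 14 had neither. Among the 107 other cells the same 4 counts were 21, 35, 1 and 50. *Calb1* was present in 37 of 74 positive cells. The cells are named by *Aldh1a7* throughout.

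**Figure D3:**
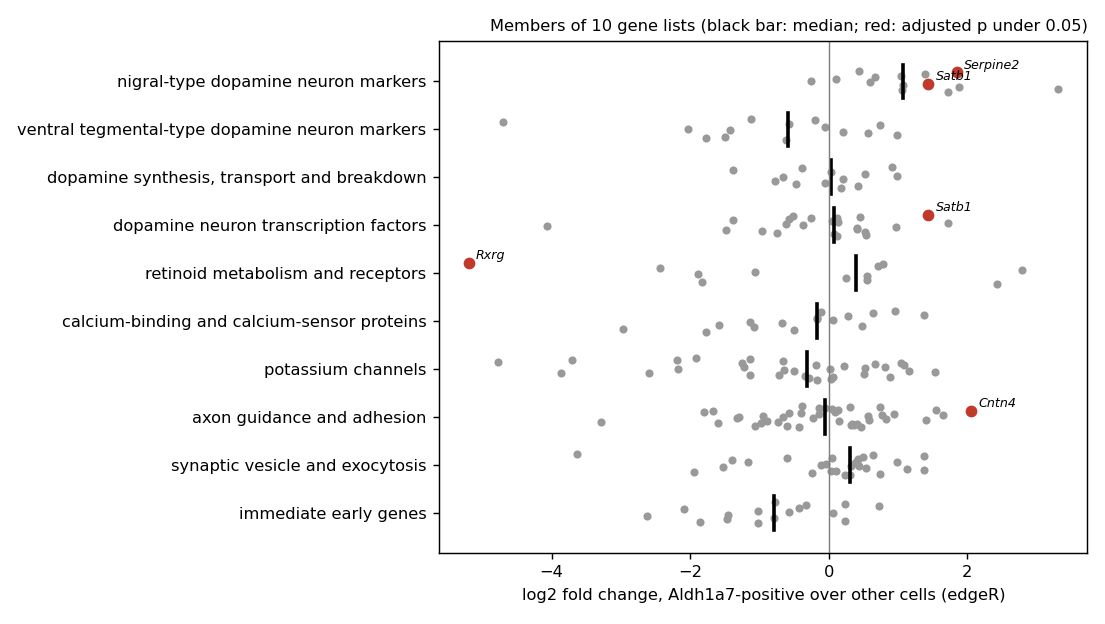
Log2 fold change of each tested gene (x axis, edgeR, *Aldh1a7*-positive over other cells, 7 mice) in 10 gene lists (y axis). A black bar is the median of a list, from 1.06 for nigral-type markers to -0.79 for immediate early genes, and red points are the genes past the threshold.

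Shares of cells with at least 10 reads were compared over the 7 mice for 12 markers. In the main setting, without thinning, no marker passed after adjustment (lowest adjusted exact permutation p 0.0938). The shares given first are those of an alternative setting, with cells thinned to 500000 reads. The cells were classed again after thinning, by which 7 of the 74 positive cells fell under 10 *Aldh1a7* reads, leaving 67 positive and 103 other cells. At that depth *Sox6* was present in 68.2% ± 24.6 of positive and 19.5% ± 9.0 of other cells (mean of mice ± SD, n = 7), and in each of 7 mice the share was higher. *Anxa1* was present in 72.6% ± 18.6 and 22.2% ± 15.8, *Aldh1a1* in 99.0% ± 2.5 and 59.7% ± 29.9, and *Igf1* in 75.7% ± 22.6 and 46.6% ± 22.2, each higher in 7 of 7 mice. *Slc17a6* was present in 22.2% ± 17.8 and 64.5% ± 15.3, lower in 7 of 7 mice. These 5 had an exact permutation p of 0.0156, the smallest that 7 mice can give, and an adjusted p of 0.0375 over the 12 markers. With the classes kept as before thinning, an alternative added after the data were seen, the same 5 markers had an exact permutation p of 0.0156 and an adjusted p of 0.0375, and *Slc17a6* was then present in 30.6% of positive and 63.5% of other cells. Without thinning, the shares of *Sox6* were 65.2% and 21.4%, those of *Anxa1* 80.1% and 20.3%, those of *Aldh1a1* 99.1% and 62.9%, those of *Igf1* 79.8% and 47.8% and those of *Slc17a6* 37.8% and 66.1%, and no marker passed after adjustment (lowest exact permutation p 0.0156, adjusted 0.0938). *Calb1* was present in 61.6% ± 30.2 and 90.8% ± 11.8 of thinned cells, lower in 5 mice and equal in the other 2 (exact permutation p = 0.0625, adjusted 0.0938). *Otx2* was present in 11.9% ± 20.9 and 31.4% ± 15.6, *Ndnf* in 54.7% ± 24.9 and 17.5% ± 18.1 and *Lpl* in 25.2% ± 28.8 and 48.4% ± 10.8, and their adjusted exact permutation p values were 0.146, 0.0625 and 0.0804. *Grp* was present in 43.8% and 37.3% and *Neurod6* in 24.2% and 24.7% (adjusted exact permutation p = 0.597 and 0.969). *Vip*, a neuropeptide, had 10 reads in 0 of 74 positive cells, which allows a share of up to 4.05% (3 cells of 74), and in 6 of 107 others.

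The positive cells were not alike among themselves, nor were the others. The 53 cells with 50 or more *Aldh1a7* reads had *Sox6* in 81.1%, *Otx2* in 3.8% and *Calb1* in 41.5% of cells. The 21 cells with 10 to 49 reads had *Sox6* in 38.1%, *Otx2* in 42.9% and *Calb1* in 71.4%, and *Neurod6* in 57.1% against 11.3% of the 53 cells. Among the other cells, the 44 with 1 to 9 *Aldh1a7* reads had a median *Aldh1a1* level of 3554 CPM and *Anxa1* in 52.3% of cells, whereas the 63 with 0 reads had a median of 19.2 CPM and *Anxa1* in 1.6%. *Neurod6* was present in 54.5% of the former and 11.1% of the latter. In these shares the 1-to-9 cells stood closer to the 10-to-49 cells than to the cells with 0 reads for *Anxa1*, *Aldh1a1* and *Neurod6*. The same held for *Satb1* (86.4%, beside 100% at 10 to 49 and 63.5% at 0 reads), *Otx2* (43.2%, beside 42.9% and 27.0%) and *Grp* (61.4%, beside 66.7% and 27.0%). They stood closer to the cells at 0 reads for *Sox6* (20.5% beside 20.6%), *Calb1* (93.2% beside 92.1%), *Serpine2* (88.6% beside 82.5%), *Lmo3* (86.4% beside 79.4%) and *Gad2* (20.5% beside 34.9%). *Slc17a6* was at 65.9% in them and at 61.9% in both other groups. The median level of *Slc6a3*, the dopamine transporter, was 1813 CPM at 0 reads, 2665 CPM at 1 to 9, 4225 CPM at 10 to 49 and 4748 CPM at 50 or more. These are shares of pooled cells without a test, and the groups take different numbers of cells from each mouse. In mice 7 and 8 the median positive cell had 21 and 35.5 *Aldh1a7* reads, and in the other 5 mice from 191 to 672.

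**Figure D4:**
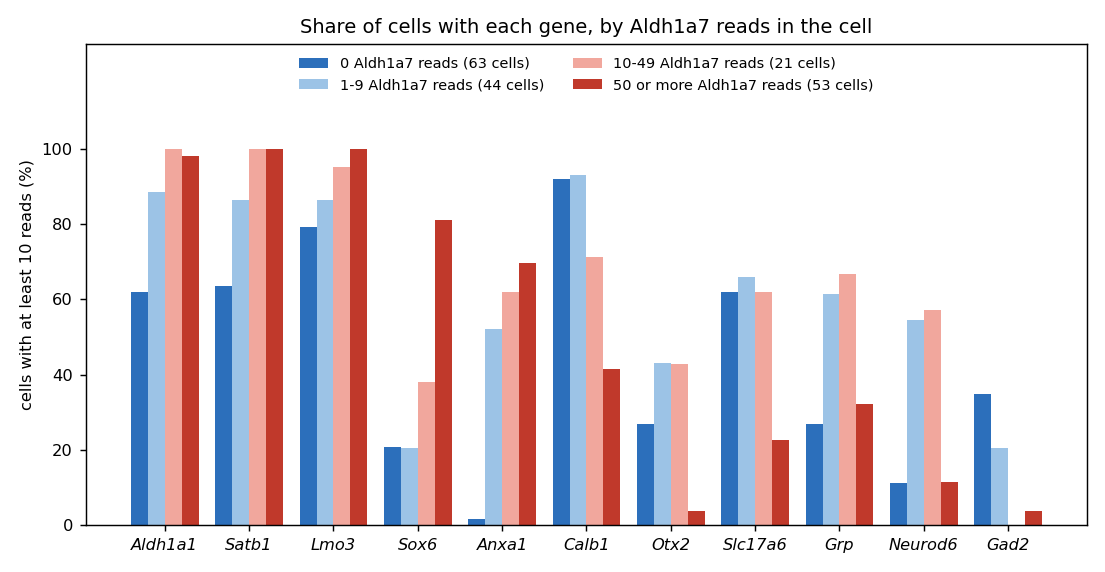
Percent of cells with at least 10 reads of each gene (y axis, from 0) for 11 genes (x axis), in 4 groups of *Th*-rich cells by their *Aldh1a7* reads, 63, 44, 21 and 53 cells. *Sox6* bars are tallest at 50 or more reads (81.1%), and *Neurod6* bars are tallest in the 2 middle groups (54.5% and 57.1%).

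Genes of dopamine synthesis, transport and breakdown did not pass the threshold by edgeR (0 of 13 tested, 5 at an unadjusted p under 0.05, 1 by DESeq2), with a median log2 fold change of 0.04. *Slc6a3*, *Drd2* and *Ddc* were higher in 7 of 7 mice (23.1% of the list, 2.06% of all genes). *Slc6a3* was at 3442–7096 CPM (median 4492) in positive and 1760–4044 CPM (median 2394) in other sums, with a log2 fold change of 0.99 ± 0.21 and an edgeR adjusted p of 0.0908, and 0.0213 with the mouse as a block. *Drd2*, the D2 receptor that acts as autoreceptor on DA neurons, was at 110–272 CPM (median 148) and 54.9–141 CPM (median 96.8), with a log2 fold change of 0.91 ± 0.27. *Ddc*, which turns L-DOPA into dopamine, had a log2 fold change of 0.42 ± 0.17 and *Slc18a2*, the vesicular monoamine transporter, one of 0.52 ± 0.16 (edgeR adjusted p = 0.562 and 0.366).

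Among 23 tested transcription factors of DA neurons, *Satb1* rose and 0 fell by edgeR (5 at an unadjusted p under 0.05, 2 by DESeq2), and the median log2 fold change was 0.08. *Lmx1a*, a homeobox factor of DA neuron development, was lower in 7 of 7 mice at 0–62.1 CPM against 58.9–99.8 CPM (log2 fold change -1.48 ± 0.65, edgeR adjusted p = 0.616). In the retinoid list 12 of 21 genes were tested, 0 rose and 1 fell (*Rxrg*) by edgeR, and the median log2 fold change was 0.40. An unadjusted p under 0.05 was reached by 5 of them, and DESeq2 called 2, with *Aldh1a1* at a DESeq2 adjusted p of 0.0394. *Aldh1a1* was higher in 7 of 7 mice, and *Rbp4*, a carrier of retinol named after its values were seen, in 6 of 7 (log2 fold change 2.79 ± 1.21, edgeR adjusted p = 0.615). Besides *Rxrg*, *Dhrs3*, which turns retinal back into retinol, was lower in 7 of 7 mice (median 29.4 against 101.7 CPM, log2 fold change -1.88 ± 0.59, edgeR adjusted p = 0.358), and 4 of 12 genes of this list (33.3%) were lower in all mice, against 2.44% of all genes. Of 9 tested aldehyde dehydrogenases outside the Aldh1a group, 0 passed in either direction by edgeR or DESeq2, 0 had an unadjusted p under 0.05, and 0 moved the same way in all mice.

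Calcium-binding and calcium-sensor proteins counted 16 tested genes, of which 0 passed by edgeR (7 at an unadjusted p under 0.05, 5 by DESeq2). *Calb1*, *Necab1*, *Hpcal1* and *Ncald* were lower in 7 of 7 mice (25.0%, against 2.44% of all genes) and *Calm3*, *Cplx1* and *Caln1* higher (18.8%, against 2.06%). *Hpcal1*, a neuronal calcium sensor of the hippocalcin family, was at 58.3–168 CPM (median 63.6) in positive and 175–428 CPM (median 241) in other sums, without overlap (log2 fold change -1.59 ± 0.31, edgeR adjusted p = 0.0556, and 0.0259 with the mouse as a block). *Necab1*, an EF-hand protein, was at 0.402–83.4 CPM (median 17.2) and 145–383 CPM (median 206), also without overlap (log2 fold change -2.98 ± 0.68, edgeR adjusted p = 0.155). *Cplx1*, a complexin that controls vesicle fusion, was at 849.8–3489 CPM (median 2104) and 432–1782 CPM (median 586), with a log2 fold change of 1.37 ± 0.35 and an edgeR adjusted p of 0.226, and 0.0309 with the mouse as a block. Of 27 synaptic vesicle genes 0 passed by edgeR (13 at an unadjusted p under 0.05, 6 by DESeq2), and 7 (25.9%) were higher in all mice, against 2.06% of all genes.

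Of 41 axon guidance and adhesion genes, *Cntn4* rose and 0 fell by edgeR (11 at an unadjusted p under 0.05, 4 by DESeq2), with a median log2 fold change of -0.06. *Cdh8*, a cadherin, was at 309.7–904 CPM (median 420) in positive and 39.5–298 CPM (median 157) in other sums, without overlap (log2 fold change 1.65 ± 0.36, edgeR adjusted p = 0.129). *Plxnc1*, a semaphorin receptor, was at 0–69.1 CPM (median 6.68) and 86.3–264 CPM (median 162), without overlap (log2 fold change -3.29 ± 0.79, edgeR adjusted p = 0.175), and 9 of 74 against 77 of 96 cells had at least 10 reads. Among 32 potassium channel genes 0 passed by edgeR (10 at an unadjusted p under 0.05, 3 by DESeq2). *Kcnip3*, a modulator of A-type potassium channels, had a log2 fold change of 1.54 ± 0.47, and *Kcnh7*, an ERG-type channel, was at 0–1.61 CPM against 1.82–19.0 CPM (log2 fold change -4.78 ± 1.10, edgeR adjusted p = 0.159). *Gria3*, an AMPA receptor subunit, was lower in 7 of 7 mice (median 118 against 212 CPM, log2 fold change -0.88 ± 0.21, edgeR adjusted p = 0.175), one of 28 tested genes of glutamate and GABA signalling of which 0 passed by edgeR (6 at an unadjusted p under 0.05, 2 by DESeq2). *Cck*, *Cbln1*, *Drd2*, *Ddc*, *Slc18a2*, *Lmx1a*, *Dhrs3*, *Hpcal1*, *Necab1*, *Cdh8*, *Plxnc1*, *Kcnip3*, *Kcnh7*, *Gria3* and *Egr1*, and the genes listed as moving the same way in all mice, were named after their values were seen.

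In 78 oxidative phosphorylation genes, 78 ribosomal protein genes, 20 Parkinson disease genes and 25 antioxidant enzymes 0 genes passed by edgeR and 0 by DESeq2. Their numbers at an unadjusted p under 0.05 were 7, 3, 3 and 4, where 7.53% of all genes reached it, and their medians of log2 fold change were 0.17, -0.08, 0.08 and 0.20. The remaining lists, for calcium channels, pacemaker and sodium channels, nicotinic receptors, neuropeptides, peptide receptors, growth factors and synapse organizers, had 0 genes past the threshold among 14, 15, 12, 14, 14, 18 and 24 tested, with 2, 0, 3, 4, 1, 3 and 5 at an unadjusted p under 0.05. DESeq2 called 0 genes in each of them but neuropeptides (1) and synapse organizers (2).

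Genes of other cells and of cell handling were examined beside these results. Immediate early genes summed to 294–500 CPM (median 329) in positive and 285–1210 CPM (median 652) in other sums, higher in positive cells in 1 of 7 mice. Of 16 tested, 0 passed by edgeR (2 at an unadjusted p under 0.05, 0 by DESeq2), with a median log2 fold change of -0.79. *Egr1* was at 0.259–88.2 CPM (median 11.7) in positive and 33.5–213 CPM (median 125) in other sums (log2 fold change -2.62 ± 0.81, edgeR adjusted p = 0.355). Of 10 oligodendrocyte markers, the summed level was 9.24–73.2 CPM in positive and 32.1–185 CPM in other sums, lower in positive cells in 7 of 7 mice, with *Mog* at 0 reads in both classes. Astrocyte markers summed to 216–798 and 296–1064 CPM, nearly all from *Slc1a2* and *Aldoc*, and *Gjb6* had 0 reads. Of the microglial markers, *C1qa*, *C1qb*, *C1qc*, *Aif1* and *Ctss* had 0 reads in both classes. Endothelial markers summed to 0–64.2 and 2.59–134 CPM, mostly *Itm2a*, with *Cldn5* and *Kdr* at 0. Of the 60 genes on the lists for other cells, 12 passed the filter on low counts, and 0 of these passed the threshold by edgeR (3 at an unadjusted p under 0.05, 1 by DESeq2). Markers of hypothalamic-type and other neurons summed to 8.09–400 CPM (median 21.8) in positive and 17.5–1432 CPM (median 480) in other sums. *Gad2* had the most reads of this list in both classes, 1258 in positive and 29659 in other cells, and was at 0.904–82.3 CPM (median 2.59) and 1.49–1233 CPM (median 228), with an edgeR adjusted p of 0.345. Apart from leaving out cells with reads of *Gad2* or of glial and endothelial genes, the part of these genes in the results was not tested.

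The share of positive cells varied between mice, from 0% in mouse 1 to 63.6% (exact 95% binomial interval 47.8–77.6%) in mouse 3. It was 26.9% ± 25.2 in the 3 mice labelled female and 40.3% ± 15.9 in the 5 labelled male (SD), with an exact permutation p of 0.429, where 56 splits allow a p of 0.0179 at best. With 1 *Aldh1a7* read enough for a positive cell the shares were 44.2% ± 7.0 and 67.4% ± 10.6 (exact permutation p = 0.0179), and with at least 50 reads 22.8% ± 20.0 and 26.3% ± 18.8 (exact permutation p = 0.821). Sex is that of the sample labels, and the series description gives other numbers of male and female mice, so both comparisons by sex rest on labels that the sources do not share. In a test of whether the class difference differed between the sexes, 8 genes passed by edgeR at an adjusted p of 0.00203–0.0335. The 2 female mice in this test were 33 and 36 days old and the 5 males 24 to 28 days, so sex and age cannot be told apart here, and both females were captured on 1 of the 2 C1 machines, which also held males. They were *Tacr3*, a neurokinin receptor, *Fstl5*, *Zfp35*, *Tcf12*, *Kcnab1*, *Mccc1*, *Nup210* and *Ppapdc1a*. In 7 of them the positive cells of the 2 female mice, 4 cells each, were at 1.51 CPM or less. *Tacr3* was at 0.402 and 1.51 CPM in these and at 171.5 and 265.2 CPM in the other cells of the same mice, while in males the positive cells were at 95.6–311 CPM and the others at 137–286 CPM. *Nup210*, a nuclear pore protein, was at 16 and 52.7 CPM in the female positive and 0.745 and 0.836 CPM in the female other cells.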

How the data were processed

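Counts of single cells were analysed as deposited. Trimming by the authors used Trimmomatic 0.3.2, alignment TopHat2 2.1.1 against the GRCm38.3 genome, and counting featureCounts 1.5.0-p3 against RefSeq gene models. The counts are of reads, without molecular identifiers or normalization, and the authors left out reads on more than 1 gene and wells with visible doublets. No doublet caller was run. A deposited table of alignment metrics names no cells and was not used. All columns matched a labelled sample, 5721 of 47082 rows held no value, and spike-in and transgene rows (5.2e-06% and 0.00456% of reads) stayed out of tests. No 2 kept cells had identical counts.

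Counts were summed per mouse and class without *Aldh1a7* and compared by edgeR 4.0.16 under R 4.3.3 (TMM, filterByExpr, quasi-likelihood test, Benjamini-Hochberg adjustment, threshold 0.05); the standard error is the log2 fold change divided by the square root of F. CPM of sums use TMM library sizes. DESeq2 1.42.0, limma 3.58.1 and the alternatives of the closing section were also run. Both classes of a mouse come from the same animal, which pairs them: the correlations of the 2 classes of a mouse after removal of class means were 0.0558–0.215, and the mouse as a block was an alternative. Shares were compared with exact sign-flip permutation tests over mice, two-sided (Python 3.11.15, scipy 1.17.1). Intervals are exact binomial and cover counting error only. Sex and age were taken from the sample labels, from which the series description differs in the number of mice of each sex and in the range of ages.

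The rule for cells, the members and the gene lists were chosen with earlier results of these data known. Named genes are the markers, up to 12 called genes per direction with the largest change, the same direction in every mouse and the higher class averaging 10 CPM or more (leaving out unnamed gene models), and of each list up to 5 called and the 2 uncalled with the highest mean, and others are said to be picked after their values were seen. Promoters and positions come from RefSeq on GRCm38.p6, transcripts from GENCODE. On simulated counts of 12524 genes for the 7 mice, with 100 genes changed 4-fold and 100 changed 16-fold, edgeR recovered 45% and 88% with 5 false calls among 138, DESeq2 56% and 92% with 37 among 185, and limma-voom 40% and 75% with 6 among 121. The summed level of the microglial markers is not reported here.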

Additional observations from a re-analysis of the deposited data

Results flagged for a closer look

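Of 87 sets of values over mice examined for a single mouse far from the rest, 6 held one, and chance alone gives about 1 in 20. The number given is the gap to the nearest mouse as a share of the whole range, on log2(CPM + 1). Mouse 4, with 4 cells in each class, held 4 of the 6: *Aldh1a1* in other cells (0.861, 2.61 CPM beside a next value of 787 CPM), *Cck* in positive cells (0.767, 0.804 beside 38.0 CPM), *Ift57* in other cells (0.662, 36.9 beside 14.6 CPM) and *Neurod6* in other cells (0.649, 0 beside 14.1 CPM). *Dhrs3* in the other cells of mouse 5 was low (0.596, 17.0 beside 71.6 CPM). *Rxrg* in the positive cells of mouse 3 was high (0.624, 2.14 beside 0.537 CPM).

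The class difference differed between the labelled sexes by an interaction term in edgeR for 8 genes, and by DESeq2 for 368. The interaction, female minus male on the log2 scale, was -7.68 for *Tacr3*, -8.89 for *Fstl5*, -7.26 for *Zfp35*, -8.06 for *Tcf12*, -8.97 for *Kcnab1*, -6.94 for *Mccc1*, 5.68 for *Nup210* and -12.1 for *Ppapdc1a*. The 2 female mice were 33 and 36 days old and the males 24 to 28 days, so age and sex cannot be told apart. The female side rests on 2 mice with 4 positive cells each, and for *Ppapdc1a* both female positive sums were at 0 reads, so that its value depends on the fit and is no bound.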

How the results depend on the processing

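The counts of genes higher and lower (5 and 8) moved with the processing, and the cause was not tested beyond what a setting changes by its own construction. With the mouse as a replicate block 11 genes were higher, 9 of the calls under the block were among the 13, and of the genes named in the text the block changed the calls given beside them and no others. These counts were 60 and 80 by DESeq2, 15 and 26 by limma-voom, 32 and 34 by limma on mean log2(CPM + 1) of cells, 12 and 22 in cells thinned to 500000 reads, 16 and 18 against cells with 0 *Aldh1a7* reads, and 1 and 0 without cells with *Gad2* reads. With at least 1 *Aldh1a7* read 5 were lower (2 of the 13 genes called in either direction), with at least 50 reads 13 were lower (5 of the 13), in lane 2 1 was higher, and with at least 5 cells a side, which keeps the same 5 mice as males only, 3 were higher in both. With lane 1, *Th* at least 5000 CPM, or no cells with glial or endothelial reads (2 mice, 11 and 19 cells) 0 and 0 passed by edgeR, with 304 and 370, 362 and 399, and 258 and 345 genes at an unadjusted p under 0.05. Leaving out one mouse gave 0–6 and 0–10 genes. The 13 called genes kept their direction wherever they were tested. This is no independent check, since the settings reuse the same mice, in each of which the 13 had moved the same way. The interaction with sex gave 368 genes by DESeq2. The share of positive cells by sex, with at least 1 read, differed by -23.2 percentage points (females lower, exact permutation p = 0.0179).

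Directions turned for genes that had not passed. *Lpl* was at -1.10 with the block, -1.44 by limma-voom, -0.94 by limma on mean logs, -2.16 with at least 50 reads, -0.19 thinned, -0.092 in lane 1, -0.14 with *Th* at least 5000 CPM and -0.018 without *Gad2* cells, and without one mouse its lowest value was -0.41 and its highest 0.41. *Igf1* was at -0.33 with at least 1 read, -0.15 against cells with 0 reads, -0.065 with *Th* at least 5000 CPM and -2.04 without cells with glial reads, and -0.052 to 0.37 without one mouse. *Grp* was at -0.77 with at least 50 reads and -0.055 thinned, *Neurod6* at -0.10 by limma-voom and -1.12 with at least 50 reads, *Otx2* at 0.13 in lane 2 and 0.40 without cells with glial reads, and *Gad2* at 0.24 without *Gad2* cells. The share of cells with *Neurod6* differed by -0.539 points when thinned and by -3.69 to 7.46 points without one mouse. Added after the data were seen were the settings without *Gad2* cells, with robust dispersions, with limma-voom and with classes kept as before thinning. At this depth edgeR recovered 45% of simulated 4-fold changes, so a gene that did not pass may still differ.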
